A study of Caenorhabditis elegans with 2 samples.

Results

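The X-linked promoter peaks are 591 regions of the X chromosome where chromatin bound by CEH-32-eGFP was called close to the start of a protein-coding gene. They were taken from the authors' pooled relaxed list of 10485 peaks, of which 2158 had their summit on X. A peak was kept if its summit, the position of its highest signal, lay from 1000 bp upstream to 500 bp downstream of an annotated protein-coding transcript start, which held for 693, and over 100 bp from any tRNA, snRNA, snoRNA, ncRNA or piRNA gene. The second condition left out 102 peaks, 86 of them beside an ncRNA gene and 11 beside a tRNA gene, and 14 of the 102 were in the optimal list described next. Of the 591 peaks, 31 were also in the authors' optimal list, the shorter list of 412 peaks that passed their reproducibility threshold. The choice used position alone and not signal.

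The worms were Caenorhabditis elegans hermaphrodites of strain OP516, which is unc-119(tm4063) III and carries the transgene wgIs516, harvested whole as L4 larvae 52 hours after release of starved, synchronised L1 larvae. Both samples were of this single group, 2 biological replicates from separate biosamples of 1 transgenic line, and no strain without the tag and no input library was analysed here. The transgene expresses CEH-32 with a C-terminal GFP-FLAG tag, stably, according to the labels; the promoter that drives it is not given in the sources used here. Precipitation was with an antibody against GFP, so a peak reports the tagged protein averaged over all cells of the animal, and a site bound in few cells cannot be told apart from one bound weakly in many. With 1 group there is no contrast and no test between conditions. Shares of peaks are given with Wilson 95% intervals, which cover counting error only, beside the same share over all 10461 pooled peaks of the nuclear chromosomes.

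CEH-32 belongs to the sine oculis family of homeodomain proteins, transcription factors that act with EYA and PAX proteins in the development of eyes, brain and head structures in many animals, and in the nematode it is known for its part in forming the head. Factors of this kind bind short DNA motifs at promoters and enhancers and recruit partners that raise or lower transcription. The X chromosome of hermaphrodites is the target of the dosage compensation complex, a condensin-like complex that is loaded at recruitment sites holding a GC-rich motif and lowers transcription along both X chromosomes. Promoters of the worm are often rich in GAGA repeats, and nematode genes frequently have their transcript start trimmed by trans-splicing, so that an annotated start can lie downstream of the true one.

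The sequences at the summits show what the strongest X-linked promoter peaks share and where they differ. Each line gives the pooled summit with 50 bases on either side in build ce11, 5′ to 3′ on the strand of the gene with the nearest start. The first 3 belong to the strongest peaks, and capitals mark GCGCAGG, a 7-base part of the dosage compensation recruitment motif, or GCGAAGG, a variant with 1 other base that was searched after values had been seen, on either strand. They lie at chrX:14525841-14525941, minus strand (nspc-17), chrX:1345004-1345104, minus strand (ins-39), and chrX:1627104-1627204, plus strand (fbxb-58).
nspc-17: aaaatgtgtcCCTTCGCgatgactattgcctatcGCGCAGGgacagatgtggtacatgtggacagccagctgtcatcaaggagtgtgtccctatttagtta
ins-39: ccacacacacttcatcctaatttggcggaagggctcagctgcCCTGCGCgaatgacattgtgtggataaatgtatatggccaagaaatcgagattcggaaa
fbxb-58: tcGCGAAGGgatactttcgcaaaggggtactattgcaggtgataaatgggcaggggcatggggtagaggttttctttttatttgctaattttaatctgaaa

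The next 5 are optimal peaks that hold the hexamer GAGAGA, on either strand, in capitals. They lie at chrX:10568675-10568775, plus strand (bet-2), chrX:16612453-16612553, plus strand (ain-1), chrX:7334463-7334563, plus strand (epg-7), chrX:2852638-2852738, minus strand (kin-29) and chrX:7823208-7823308, plus strand (eef-1A.2).
bet-2: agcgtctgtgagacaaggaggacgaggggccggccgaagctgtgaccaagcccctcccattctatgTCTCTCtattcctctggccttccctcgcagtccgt
ain-1: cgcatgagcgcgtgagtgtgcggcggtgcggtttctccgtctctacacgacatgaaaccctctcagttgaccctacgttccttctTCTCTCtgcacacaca
epg-7: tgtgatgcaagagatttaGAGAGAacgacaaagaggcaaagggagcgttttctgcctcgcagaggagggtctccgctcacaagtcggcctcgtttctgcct
kin-29: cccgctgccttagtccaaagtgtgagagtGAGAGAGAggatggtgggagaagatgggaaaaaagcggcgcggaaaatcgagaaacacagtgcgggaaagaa
eef-1A.2: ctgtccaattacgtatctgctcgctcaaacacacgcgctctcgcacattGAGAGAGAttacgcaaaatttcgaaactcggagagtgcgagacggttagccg

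The last 3 are optimal peaks with neither, shown for their high share of G and C with no GA repeat. They lie at chrX:15841206-15841306, plus strand (serp-1.1), chrX:7501131-7501231, minus strand (uggt-1) and chrX:4960506-4960606, plus strand (act-4).
serp-1.1: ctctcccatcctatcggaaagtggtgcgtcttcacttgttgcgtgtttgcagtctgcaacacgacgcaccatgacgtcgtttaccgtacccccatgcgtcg
uggt-1: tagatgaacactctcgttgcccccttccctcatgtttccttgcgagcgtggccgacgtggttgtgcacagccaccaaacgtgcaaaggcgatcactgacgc
act-4: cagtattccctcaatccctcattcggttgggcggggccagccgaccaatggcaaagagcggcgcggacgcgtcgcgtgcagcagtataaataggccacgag

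Pooled signal, the value the authors' peak caller gave each peak, ran from 27.1 to 362 over the 591 peaks, with a median of 35.3, against 33.5 over all nuclear pooled peaks. Optimal peaks made up 5.25% of them (31 of 591, interval 3.72% to 7.35%), beside a background of 3.71% over all nuclear pooled peaks (388 of 10461), a value just below the interval. Autosomal peaks chosen by the same rule were optimal in 122 of 3133 cases (3.89%), and X-linked peaks between genes and outside promoter windows in 30 of 568 (5.28%). The share of optimal peaks was thus close to that of X peaks between genes. Signal of the 31 optimal peaks ran from 82.1 to 362 with a median of 104, and that of the other 560 from 27.1 to 79.7, so that the list cut the X-linked promoter peaks by signal with no overlap.

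The 4 strongest peaks stood above the rest. Upstream of nspc-17, a gene of the nematode-specific peptide family group C, the peak had a signal of 362 after pooling, 264 in replicate 1, where no nuclear peak was stronger, and 114 in replicate 2; the summit lay 710 bp upstream of the start. At ins-39, an insulin-like peptide gene, it was 229 pooled, 102 in replicate 1 and 129.4 in replicate 2. At fbxb-58, which codes for an F-box protein, it was 223 pooled, 118 in replicate 1 and 105 in replicate 2. Their summits lay far from the start too, at 633 bp for ins-39 and 983 bp for fbxb-58. The windows of nspc-17 and ins-39 hold GCGCAGG. That of fbxb-58 holds only GCGAAGG, the variant searched after values had been seen, so it is no shared trait found by a planned search. None of the 3 windows holds GAGAGA. The fourth, 316 bp upstream of serp-1.1, a small stress-associated protein of the endoplasmic reticulum, had 182 pooled, 99.0 in replicate 1 and 84.8 in replicate 2.

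**Figure D1:**
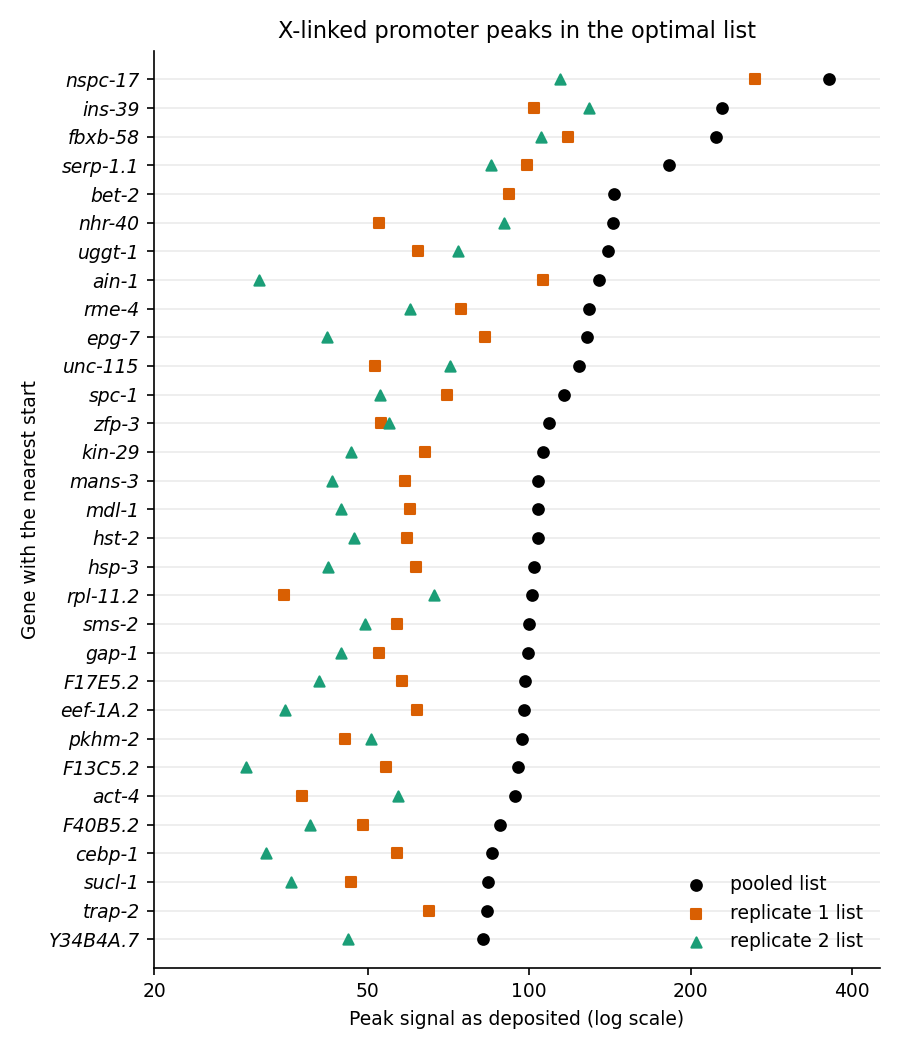
Peak signal of the 31 X-linked promoter peaks of the optimal list, on a log scale, in the pooled list (black circles), the replicate 1 list (orange squares) and the replicate 2 list (green triangles), ordered by pooled signal and named by the gene with the nearest start. Pooled signal falls from 362 at nspc-17 to 82.1 at Y34B4A.7, bet-2 and trap-2 have no value in replicate 2, and Y34B4A.7 has none in replicate 1.

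The other 27 optimal peaks ran from 144 down to 82.1 without a comparable gap, and are described here by the known roles of their genes, a grouping made after their values had been seen. How many of all X-linked genes have such roles was not counted, so the groups only order the description, and no role can be called frequent among the optimal peaks. The 7 optimal peaks placed with genes of the endoplasmic reticulum, the Golgi and lipid synthesis had pooled signals from 83.5 to 182 and a median of 104. Beside serp-1.1 they include uggt-1, the glucosyltransferase that marks misfolded glycoproteins (140 pooled, 62.1 in replicate 1 and 73.8 in replicate 2), and hsp-3, an Hsp70 chaperone of the endoplasmic reticulum (102 pooled, 61.6 and 42.2 in replicates 1 and 2). The heparan sulfate 2-O-sulfotransferase hst-2, the alpha-1,2-mannosidase mans-3 and the sphingomyelin synthase sms-2 had pooled signals of 104, 104 and 100. One peak served both trap-2, a subunit of the translocon-associated complex, and ile-2, an L-type lectin on the opposite strand, with 83.5 pooled and 65.0 in replicate 1. None of these 7 windows holds GAGAGA.

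The 7 placed with regulators of chromatin, transcription and RNA ran from 85.2 to 144 with a median of 109. The bromodomain gene bet-2 had 144 in the pooled list and 91.5 in replicate 1, but no summit within 100 bp in replicate 2. A second bet-2 peak, outside the optimal list, overlapped it, with 67.9 pooled, 26.9 in replicate 1 and 58.2 in replicate 2. The nuclear hormone receptor gene nhr-40 had 143 pooled, 52.4 in replicate 1 and 89.6 in replicate 2, and its summit lay in an intron of nhr-40, upstream of a further transcript start. At ain-1, whose product works with the Argonaute ALG-1 in microRNA silencing, the ratio of replicate 1 to replicate 2 was the highest among optimal peaks found in both, 3.37, with 135 pooled, 106 in replicate 1 and 31.4 in replicate 2. The difference in signal was larger at nspc-17. The zinc finger gene zfp-3, the Mad-like basic helix-loop-helix gene mdl-1, the bromodomain gene F13C5.2 and the C/EBP gene cebp-1 followed with pooled signals of 109, 104, 95.2 and 85.2. Here 6 of the 7 windows hold GAGAGA, all but that of cebp-1, in contrast to the 0 of 7 of the secretory group; with so few windows and groups formed afterwards, this is a description only.

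Cytoskeleton genes gave 3 optimal peaks, none with GAGAGA. They are unc-115, an actin-binding LIM protein of axon guidance (124 pooled, 51.5 in replicate 1 and 71.3 in replicate 2), the alpha spectrin gene spc-1 (116 pooled, 70.2 and 52.6), and the actin gene act-4 (94.0 pooled, 37.7 and 57.0). Membrane traffic and autophagy gave 3 more. They are rme-4, a DENN domain gene of yolk uptake (129.2 pooled, 74.7 in replicate 1 and 59.9 in replicate 2), the autophagy scaffold gene epg-7 (128 pooled, 82.6 and 41.9), and pkhm-2, which codes for a RUN domain protein (96.9 pooled, 45.3 and 50.8). The remaining optimal peaks lay at translation genes, signalling genes and enzymes. Both translation genes hold GAGAGA, namely rpl-11.2, for a protein of the large ribosomal subunit (100.7 pooled, 34.9 in replicate 1 and 66.5 in replicate 2), and eef-1A.2, for elongation factor 1-alpha (97.9 pooled, 61.7 and 35.1). The kinase gene kin-29 had 106 and the Ras GTPase-activating gene gap-1 had 99.5. The mitochondrial genes F17E5.2, a carrier, and sucl-1, a subunit of succinate-CoA ligase, had 98.3 and 83.9, and the putative metallophosphoesterase gene F40B5.2 had 88.3. The weakest, at 82.1, lay between Y34B4A.7, which codes for a methyltransferase-like protein, and mtm-5, a myotubularin-related gene.

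Peaks on either side of the optimal cut differed little. Just inside were sucl-1 (83.9), trap-2 (83.5) and Y34B4A.7 (82.1), and just outside were set-20 (79.7), pqn-39 (79.0) and myrf-2 (78.3), a homologue of a membrane-bound transcription factor. Among peaks outside the optimal list, the 5 strongest found in both replicates were those at set-20 (35.1 in replicate 1 and 44.4 in replicate 2), myrf-2 (36.9 and 41.9), the profilin gene pfn-2 (77.4 pooled), C09G1.2 (77.2) and pdi-6, a protein disulfide isomerase of the endoplasmic reticulum (77.0).

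Recurrence in the replicates was defined as a summit within 100 bp in the replicate's own relaxed list, which held 14069 peaks for replicate 1 and 14710 for replicate 2. In replicate 1, 320 of the 591 X-linked promoter peaks recurred (54.1%, interval 50.1% to 58.1%), against a background of 48.3% over nuclear pooled peaks. In replicate 2, 384 recurred (65.0%, 61% to 68.7%), against 61.9%. Both replicates held 185 (31.3%, 27.7% to 35.2%), against 24.2%, and neither held 72 (12.2%). The shares in replicate 1 and in both replicates lay above the background by more than the counting error of the 591, and the background in replicate 2 lay within its interval. Since the pooled list was made from the same 2 libraries, recurrence does not stand apart from pooled signal.

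Recurrence followed signal closely. The 591 peaks were divided by pooled signal into 10 classes of 59 or 60. Of the weakest class (27.1 to 28.4) 1 of 59 recurred in both replicates (1.69%), of the sixth class 16 of 59 (27.1%), and of the strongest (65.2 to 362) 50 of 60 (83.3%). Neither replicate held 20 of 59 in the weakest class and 0 of 60 in the strongest. Most X-linked promoter peaks of the relaxed list therefore had no repeat in both libraries. Of the 31 optimal ones 28 recurred in both (90.3%), near the 356 of 388 nuclear optimal peaks (91.8%). The optimal list was itself made by reproducibility in these libraries, so such recurrence follows from its choice. By the 100 bp rule the 3 exceptions among the 31 were bet-2 and trap-2, not found in replicate 2, and Y34B4A.7, not found in replicate 1. The second bet-2 peak, which overlaps the optimal one, was found in replicate 2 at 58.2.

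**Figure D2:**
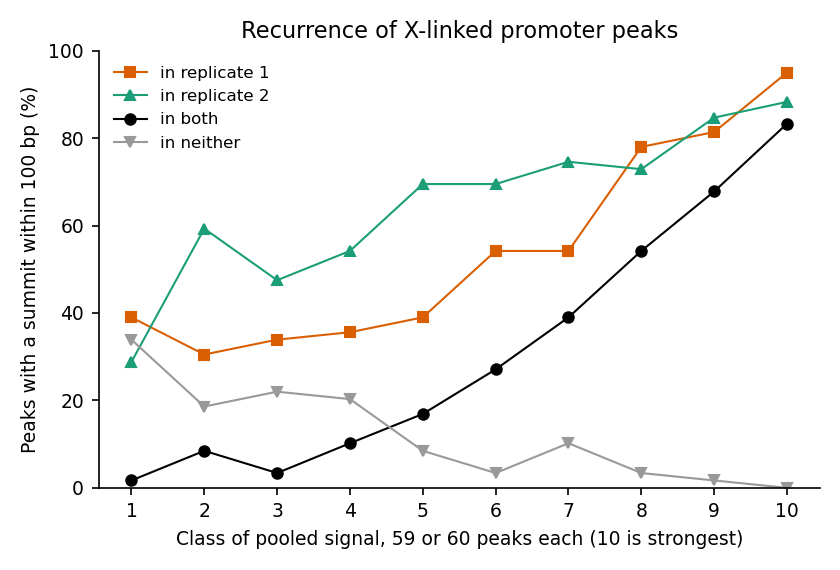
Percent of X-linked promoter peaks with a summit within 100 bp in replicate 1 (orange), in replicate 2 (green), in both (black) and in neither (grey), by class of pooled signal, 1 weakest and 10 strongest, with 59 or 60 peaks in each. The share found in both rises from 1.69% in the weakest class to 83.3% in the strongest.

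Over the 185 peaks found in both replicates, signals of the replicates ranked alike in part (Spearman's rho 0.511), close to the value over all nuclear peaks found in both (0.511, n = 2534) and below that of X peaks between genes (0.708, n = 131). These points share 2 libraries and are no independent samples. Within the 28 optimal peaks rho was 0.204, against 0.372 over all nuclear optimal peaks found in both (n = 356). It was 0.366 over autosomal optimal promoter peaks (n = 111) and 0.773 over X optimal peaks between genes (n = 29). The order of the 28 thus matched little between replicates, with few peaks and a range cut by signal. The replicates also differed in which was higher. Signal was higher in replicate 1 at 20 of 28 optimal X-linked promoter peaks, with a median ratio of replicate 1 to replicate 2 of 1.25, but at 48 of 157 others, with a median of 0.81. Among autosomal optimal promoter peaks replicate 1 was higher at 48 of 111, with a median of 0.965. The scale of signal differs between lists, so only the difference between sets of peaks can be read from these ratios, and its cause was not tested.

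**Figure D3:**
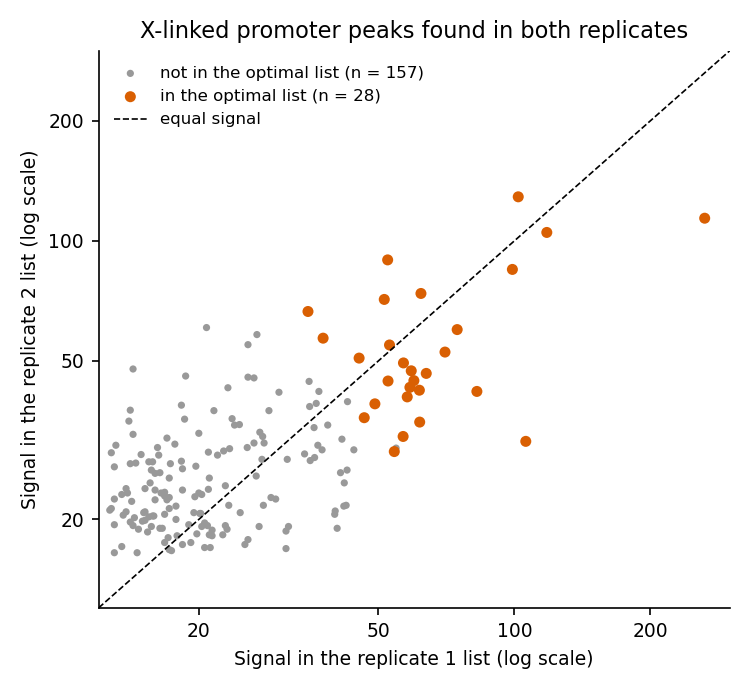
Signal in the replicate 1 list against signal in the replicate 2 list, both on log scales, for the 185 X-linked promoter peaks found in both, with the 28 optimal peaks in orange, the 157 others in grey and a dashed line of equal signal. Of the orange points 20 lie on the replicate 1 side of the line, and of the grey points 48.

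By position, summits of all 591 peaks had a median distance of 212 bp upstream of the nearest linked start, and 415 of them (70.2%) lay upstream. The window reached 1000 bp upstream but only 500 bp downstream, so evenly spread summits would also lie mostly upstream. For the whole set these values therefore reflect the choice of window. Of the optimal peaks 30 of 31 lay upstream, with a median of 268 bp; the exception is hst-2, 9 bp downstream of the start in the 5′ UTR. The bin from 400 to 201 bp upstream held 100 peaks, of which 13 were optimal (13.0%) and 43 were found in both replicates (43.0%). From 200 to 1 bp upstream there were 110 peaks, 8 of them optimal. Downstream of the start, from 200 to 500 bp, there were 94 peaks with none in the optimal list and a median signal of 32.5, against 39.6 in the bin from 400 to 201 bp upstream. Within the X-linked promoter peaks, all optimal ones but that of hst-2 thus lay before the annotated start, and the others were spread over the whole window. Positions of autosomal promoter peaks were not counted, so no background is given. Whether X-linked optimal peaks differ in this from other optimal peaks was not tested.

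**Figure D4:**
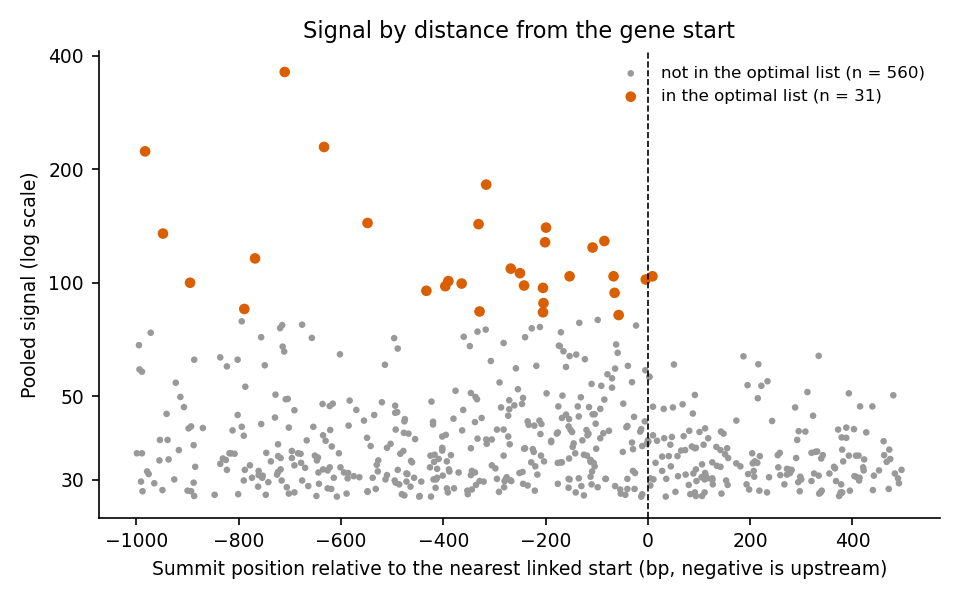
Pooled signal, on a log scale, against summit position relative to the nearest linked start for 31 optimal (orange) and 560 other (grey) X-linked promoter peaks, with the start as a dashed line. Orange points lie upstream of the start except for hst-2 at 9 bp downstream.

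The annotation under the summit differed too, though it is tied to the position relative to the start. It was counted for the X-linked promoter peaks only, so no background is given. Among optimal peaks 27 of 31 summits lay between genes, 3 in introns (nhr-40, rme-4 and F40B5.2) and 1 in a 5′ UTR, with 0 in coding exons. A count of 0 is given with the limit of 3 counts of the total in place of a Wilson interval, here 3 of 31 or 9.68%. Among the other 560, 266 lay between genes, 160 in introns and 81 in coding exons (14.5%). Few X-linked promoter peaks lay between divergent genes. Starts on both strands were linked to 22 of the 591 (3.72%) and to 2 of the 31 optimal ones, the peaks of trap-2 and ile-2 and of Y34B4A.7 and mtm-5. Among autosomal promoter peaks the share was 460 of 3133 (14.7%), and 46 of 122 when optimal (37.7%). Gene arrangement differs as well, since 256 of 2731 X-linked genes (9.37%) had an opposite-strand start within 1500 bp upstream, against 4405 of 17242 autosomal genes (25.5%); its part in the difference was not tested.

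Base composition set the optimal peaks apart from the others, on X as over all nuclear peaks. Within 50 bp of the summit the median share of G and C was 52.5% in the 31 optimal peaks and 37.6% in the other 560. Windows of the same width 400 bp away had medians of 35.6% and 33.7% on the left and right of the optimal summits. A share over 50% was found in 22 of 31 optimal peaks and 108 of the other 560 (19.3%). In bins of 40 bp the mean share was 53.3% at the optimal summits, 49% at 80 bp to the left and 46.5% at 80 bp to the right. Autosomal optimal promoter peaks reached 52.6% at the summit but 39.7% and 38.8% at those positions, so the GC-rich stretch was broader at the X-linked ones; this difference was not tested. Whether the recovery of GC-rich DNA in amplification and sequencing had a part in these values was not tested, and no control library was analysed here.

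**Figure D5:**
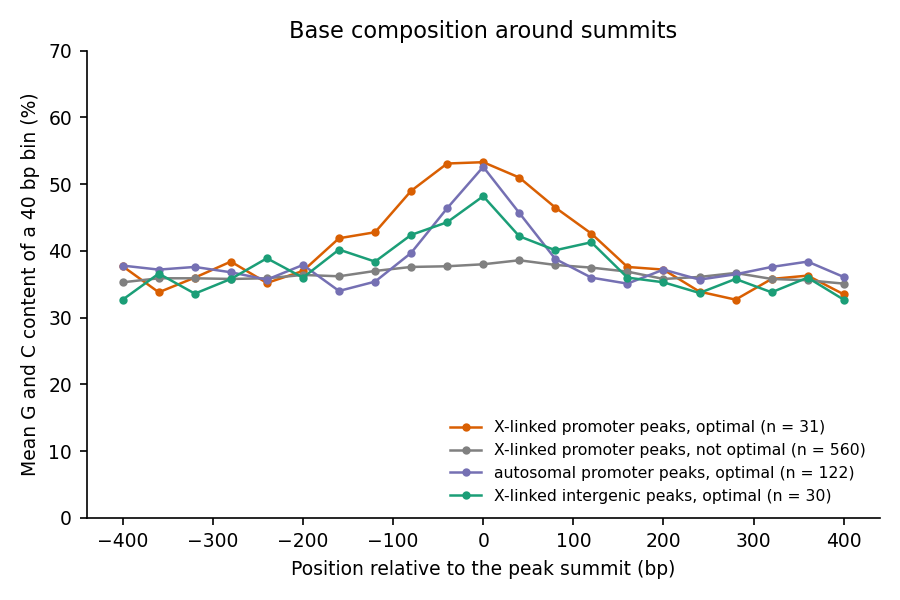
Mean share of G and C in bins of 40 bp from 400 bp left to 400 bp right of the summit on the reference strand, for optimal (orange, n = 31) and other (grey, n = 560) X-linked promoter peaks, autosomal optimal promoter peaks (purple, n = 122) and X-linked optimal peaks between genes (green, n = 30). The orange line reaches 53.3% at the summit and stays above the purple line at 80 bp on both sides, and the grey line reaches 38.6%.

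GAGAGA, on either strand, lay within 50 bp of the summit in 77 of the 591 peaks (13.0%, interval 10.6% to 16.0%), against a background of 9.89% over nuclear pooled peaks and 9.28% of the equally wide windows centred 100 bp upstream of the 4115 X-linked transcript starts. Optimal peaks held it in 12 of 31 cases (38.7%, 23.7% to 56.2%) and the others in 65 of 560 (11.6%). In the windows 400 bp to the left and right of the optimal summits it was found in 0 and 3 of 31. Of the autosomal optimal promoter peaks 29 of 122 held it (23.8%), and of all nuclear optimal peaks 109 of 388 (28.1%), both inside the X-linked interval. The 77 peaks with the hexamer had a median signal of 43.5, and 41 of them recurred in both replicates (53.2%). The 514 without it had a median of 34.9 and recurred in 144 cases (28.0%). Their median shares of G and C differed too, at 50.5% with the hexamer and 35.6% without. The 130 peaks with over 50% of G and C had a median signal of 44.0, and 66 recurred in both (50.8%). The parts of hexamer and base composition were not tested, and no such split of all nuclear peaks is given here. The sequences above show it in different settings, as a short alternating run at kin-29 and eef-1A.2 and as a single copy among C and T at ain-1.

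The dosage compensation heptamer GCGCAGG was rare. It lay within 50 bp of the summit in 7 of 591 peaks (1.18%, 0.575% to 2.42%), at nspc-17, ins-39, R04E5.9, svh-5, aakg-4, R04E5.8 and K07E3.2, of which nspc-17 and ins-39 are optimal. The other 5 had pooled signals from 31.5 to 60.7. Over all nuclear pooled peaks it was at 55 of 10461 (0.526%), just below that interval. Autosomal promoter peaks held it in 10 of 3133 cases (0.319%), and windows upstream of X-linked starts in 10 of 4115 (0.243%). X-linked optimal peaks between genes held it in 9 of 30 cases, all nuclear optimal peaks in 19 of 388 (4.9%), and the optimal promoter peaks in 2 of 31 (6.45%, 1.79% to 20.7%); the difference was not tested. In the whole sequence the heptamer had 20.1 matches per Mb on X and 19.9 on the autosomes. GCGAAGG was found at 3 of 31 optimal peaks (9.68%), nspc-17, fbxb-58 and hsp-3, and at 3 of the other 560. All nuclear pooled peaks held it in 78 of 10461 cases (0.746%) and nuclear optimal peaks in 15 of 388 (3.87%). X-linked optimal peaks between genes held it in 5 of 30 (16.7%), so it was not particular to the promoter peaks. A match is a string of letters and not a measured site of the complex.

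Letters known from sine oculis and homeodomain binding were counted in the same way. TGATAC, the core of the sine oculis motif, lay near 25 of 591 summits (4.23%, 2.88% to 6.17%). The share was 2.85% over all nuclear pooled peaks, just below that interval, 2.62% over autosomal promoter peaks and 3.55% over windows upstream of X-linked starts. Of the 31 optimal summits 1 had it (3.23%), that of sucl-1, close to the 3.09% of all nuclear optimal peaks. TAATTA, a common homeodomain core, lay near 41 of 591 (6.94%, 5.15% to 9.28%), against 6.35% over all nuclear pooled peaks and 4.59% of windows upstream of X-linked starts. It was at 0 of the 31 optimal summits, which by the limit of 3 counts allows up to 9.68%, and at 6 of 388 nuclear optimal peaks (1.55%). TTTCAG, the splice acceptor and trans-splice letters, lay near 70 of 591 summits (11.8%), against 15.8% over all nuclear pooled peaks, and near 1 of 31 optimal ones, against 4.12% of nuclear optimal peaks.

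The 591 peaks were linked to 521 of the 2731 X-linked protein-coding genes (19.1%, 17.6% to 20.6%), close to the background of 18.3% over all nuclear genes, and the optimal peaks to 33 (1.21%) against 1.05%. Most peaks, 559, had 1 gene, and 88 genes had more than 1 peak, with 5 at zfp-3 as the most. At zfp-3 the optimal peak of 109 was joined by peaks of 49.1, 36, 31.0 and 30.4, none of them in the optimal list. Of the 33 genes with an optimal peak 29 had a symbol (87.9%), against 1344 of 2731 X-linked genes (49.2%).

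Gene lists gave few X-linked members each and are counted beside the 19.1% of all X-linked genes. Neither of the 2 X-linked genes of the sine oculis, EYA and PAX families was linked, nor any of 6 sex determination and dosage compensation genes. Housekeeping lists had higher shares with wide intervals, 34.2% to 100% and 30% to 90.3%, with both ribosomal protein genes, rpl-11.2 and rpl-25.1 (39.4 pooled, found only in replicate 2 at 19.6), and 4 of 6 translation factor, chaperone and proteasome genes, among them dnj-7 (47.2 pooled). Of 8 molting and heterochronic genes 4 were linked, namely ain-1, myrf-2, the Argonaute gene alg-1 (44.1 pooled, 19.6 in replicate 1 and 22.8 in replicate 2) and the steroid receptor gene daf-12 (35.1 pooled, 30.6 in replicate 2 only).

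Developmental regulators showed a mixed picture. Nuclear hormone receptor genes were linked in 7 of 27 cases (25.9%), led by nhr-40, nhr-1 (74.2 pooled, 25.7 in replicate 1 and 45.5 in replicate 2) and nhr-48 (60.6 pooled, 24.6 and 34.6), and 1 of 10 basic helix-loop-helix genes was linked, mdl-1. Homeobox genes were linked in 4 of 27 cases (14.8%), with none in the optimal list and pooled signals of 37.2 at ceh-18, 36.4 at lim-4, 31.7 at lim-6 and 31.6 at ttx-3. Of these 4, ttx-3, a LIM homeobox gene of interneuron fate, was found in both replicates, at 16.8 and 17.5. All 4 peaks were near the median of the X-linked promoter peaks or below it.

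Genes of differentiated cells were linked at shares on either side of that of all X-linked genes, with wide intervals. Of 69 ion channel and neurotransmitter receptor genes 8 were linked (11.6%, 5.99% to 21.2%), with the glutamate receptor gene glr-6 (49.7) and the serotonin receptor genes ser-7 (41.4) and ser-1 (39.4) as the strongest. Of 37 neuropeptide and insulin-like genes 6 were linked (16.2%, 7.65% to 31.1%), led by ins-39, nlp-45 (71.7 pooled, 41.5 in replicate 1 and 31.8 in replicate 2) and nlp-49 (49.2). Chemoreceptor genes were linked in 3 of 34 cases (8.82%, 3.05% to 23%), srd-46, srd-48 and srg-64, none found in both replicates. Cuticle collagen genes were linked in 6 of 30 cases, with col-44 (46) as the strongest, and none was optimal. Axon guidance and synaptic adhesion genes were linked in 3 of 11 cases (27.3%, 9.75% to 56.6%), syg-1 (64.0), nlg-1 (58.1) and rig-1 (37.4). Of 13 muscle genes 3 were linked (23.1%, 8.18% to 50.3%), act-4, unc-78 (38.2) and pat-9 (30.7). Of 12 intestine and vitellogenin genes 2 were linked (16.7%), lmp-1 (62.5), a lysosomal membrane gene, and the aquaporin gene aqp-8 (54.5), both found in both replicates.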

How the data were processed

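The files are narrowPeak-type lists in build ce11 (identical to WBcel235): a relaxed list per replicate, a pooled relaxed list made from both replicates' alignments with a control, and an optimal list made from these by reproducibility (IDR), per the file notes. Signal per peak is the authors' value, used as deposited, with a scale of its own in each list. The deposited −log10 q-values took a single value in the optimal list, so no filter used them. How reads were aligned and peaks called is not given in the sources used here. Files with read counts were not used, so depth is unknown. Lists in build ce10 were not analysed.

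Gene starts came from Ensembl annotation release 115 and sequence from RefSeq for WBcel235. A peak was matched to the nearest summit of a replicate's list within 100 bp. Motifs were searched on both strands within 50 bp of the summit. Repeat content was measured by 36-mers. Tables were handled with pandas 2.3.3 and numpy 2.4.6 under Python 3.11.15, intervals came from SciPy 1.17.1, and plots from matplotlib 3.10.9. Links, summit matching and motif counts were checked on simulated data. Members, gene lists and motifs were chosen with earlier results of these data known, so list counts are descriptions and no test was run. By rule, the text names genes at the optimal peaks, the 12 strongest with values in both replicates, 3 peaks on either side of the optimal cut, the 5 strongest other peaks found in both replicates and up to 3 linked genes per list. Beyond that rule it names all 4 linked homeobox genes, all 4 linked molting and heterochronic genes, and the genes at GCGCAGG matches. Replicates are separate biosamples of 1 line. Other promoter windows, distances, matching rules, motif windows, signal cuts and single-replicate lists were tried.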

Additional observations from a re-analysis of the deposited data

How the results depend on the processing

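Each of 79 values recomputed under 16 other settings was set beside its reported value, and 52 stayed within the interval of that value or, for counts, within 1.5 times. None changed direction, since no value is a signed contrast. Matching summits within 50 bp gave 43.1% found in replicate 1, 54.5% in replicate 2, 19.3% in both and a rho of 0.612. Within 200 bp the shares were 61.3%, 72.1% and 39.8%, and with regions overlapping by 1 bp or more they were 65.8%, 75.3% and 46.4%. A promoter from 2000 bp upstream gave 27.3% in both and a median signal of 34.7. A promoter ending at the start gave a median signal of 36.9 and GAGAGA in 16.5%. GAGAGA was found in 6.94% within 25 bp, 21.8% within 100 bp and 5.33% in windows 400 bp away. Counting only the optimal peaks above that list's median signal left 2.2% optimal and 13 genes. Keeping peaks above the median signal of the pooled list left 347 peaks, 8.93% optimal and a median of 42.2. Choosing peaks from a single replicate's list gave 823 to 826 peaks and 687 to 704 genes. Their median signal was 16.8 to 20.9, and GAGAGA was in 9.72% to 11%. The optimal share was 3.28% to 3.51% and rho 0.546 to 0.55, but neither value leaves the other replicate out. The optimal list was made from both replicates, and rho compares them. Adding miRNA, lincRNA, antisense RNA and rRNA genes to the distance filter, a setting chosen after seeing the data, left 588 peaks, 5.27% of them optimal. No paired analysis was possible because there is 1 group.

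Depth is unknown, with no read counts and no control analysed, so weak peaks cannot be told from background. Peaks are not replicates: all 591 come from the same 2 libraries, and intervals cover counting error only. Annotated starts can lie downstream of the true ones.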

Other observations

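Of the 31 optimal X-linked promoter peaks, 11 lay in the first of 6 equal stretches of X, from 1 to 2953157 in build ce11, where 2.9% of genes had one, and between 3 and 6 lay in each of the others, where 0.591% to 1.17% of genes did. The first stretch also had the highest share of genes linked to any peak of the set, 23.9% against 16.0% to 21.9%. These are counts, with no test. How all 122 optimal peaks of X were spread over the same stretches is not given here, so the count cannot be called particular to promoter peaks.

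The deposited width was 420 bp for 585 of the 591 peaks. The 6 of another width, nspc-17 (432 bp), fbxb-58 (213 bp), serp-1.1 (221 bp), ins-39 (172 bp), mdl-1 (134 bp) and rme-4 (127 bp), were all optimal and all found in both replicates, and they include the 4 strongest. No optimal window held a repeated 36-mer, and 10 of the other 560 did.

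Among all 2080 hexamers counted with their reverse complements, the largest excess of optimal summits over their flanks was that of GAGAGA, with 12 of 31 against 3 of 62. ACACAC was at 11 of 31 against 4 of 62, and autosomal optimal promoter peaks held it at 16 of 122 (13.1%). GCGTCT, looked up after values had been seen, was at 5 of 31 optimal X-linked promoter peaks (16.1%) and 23 of 122 autosomal ones (18.9%). All nuclear optimal peaks held it in 59 of 388 cases (15.2%), close to the X-linked share. The share over all nuclear pooled peaks was 4.48% (469 of 10461).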
